A study of Mus musculus with 4 samples.

Results

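The 10 genes Pecam1, Cdh5, Eng, Cd34, Cd93, Eltd1, Emcn, Esam, Icam2 and Robo4 encode proteins on the surface of vascular endothelial cells. They were chosen by name, and all 10 were found among the 23278 genes of the deposited table. Their RNA was measured in whole mouse retina, 10 days after birth, with 1 sequencing library per genotype. The stabilized knockout (NdpKO;Ctnnb1flex3/+;Pdgfb-CreER) lacked Ndp, which encodes Norrin, a secreted ligand, and carried an allele of the beta-catenin gene that recombination turns into a stabilized form. Its recombinase, Pdgfb-CreER, is activated by tamoxifen and is expressed in endothelial cells. The knockout (NdpKO) lacked Ndp alone, the stabilized library (Ctnnb1flex3/+;Pdgfb-CreER) had the allele and the recombinase with Ndp intact, and the WT library had neither change. Mice of all 4 genotypes were of mixed background, with at least C57BL6 and 129, and were injected at postnatal day 3 with 20 ug of 4HT, a tamoxifen derivative. Each library pooled RNA of 3 batches, and a batch held 4 to 8 retinas of 2 to 4 mice. Stabilization and the presence of Pdgfb-CreER cannot be told apart in this design, since no library held the recombinase alone.

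These genes are used in many tissues to mark blood vessels. Pecam1, Cdh5 and Esam proteins hold neighbouring endothelial cells together at their junctions, and Icam2 is a ligand for leukocyte integrins. Cd34 and Emcn are heavily glycosylated sialomucins of the vessel lumen. Eng is a co-receptor for ligands of the BMP and TGF-beta family, Robo4 is the endothelial member of the roundabout receptors, Cd93 is a lectin-like receptor that binds the matrix protein of Mmrn2, and Eltd1, now named Adgrl4, is an adhesion G protein-coupled receptor. In the retina of young mice, Norrin acts on endothelial cells through the receptor Frizzled-4 and beta-catenin, and guides growth and barrier formation of the vessels. In whole tissue, more cells of a type and more RNA per cell cannot be told apart.

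For 9 of the 10 genes, both libraries with stabilized beta-catenin were above both without it, whatever the state of Ndp. For Pecam1, Cdh5, Eng, Cd93, Eltd1 and Robo4 the deposited intervals of the 2 groups of libraries also lay apart. The share of all genes with either pattern was not computed. By a rule looser than the second pattern, higher with intervals apart within each Ndp state, 0.684% of all genes tested passed. That rule requires intervals apart, so it gives no background for the order alone that the 9 genes showed. The sum of all 10 genes was 37.9 FPKM (fragments per kilobase of transcript, scaled to the size of the library) in the stabilized knockout, against 16.0 FPKM in the knockout. It was 33.6 FPKM in the stabilized library, against 17.3 FPKM in WT. Emcn was the exception, with its higher values in the libraries without stabilization. The authors deposited an interval with each value. It describes the estimate within a library and not variation between animals, and no source at hand states its confidence level.

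**Figure D1:**
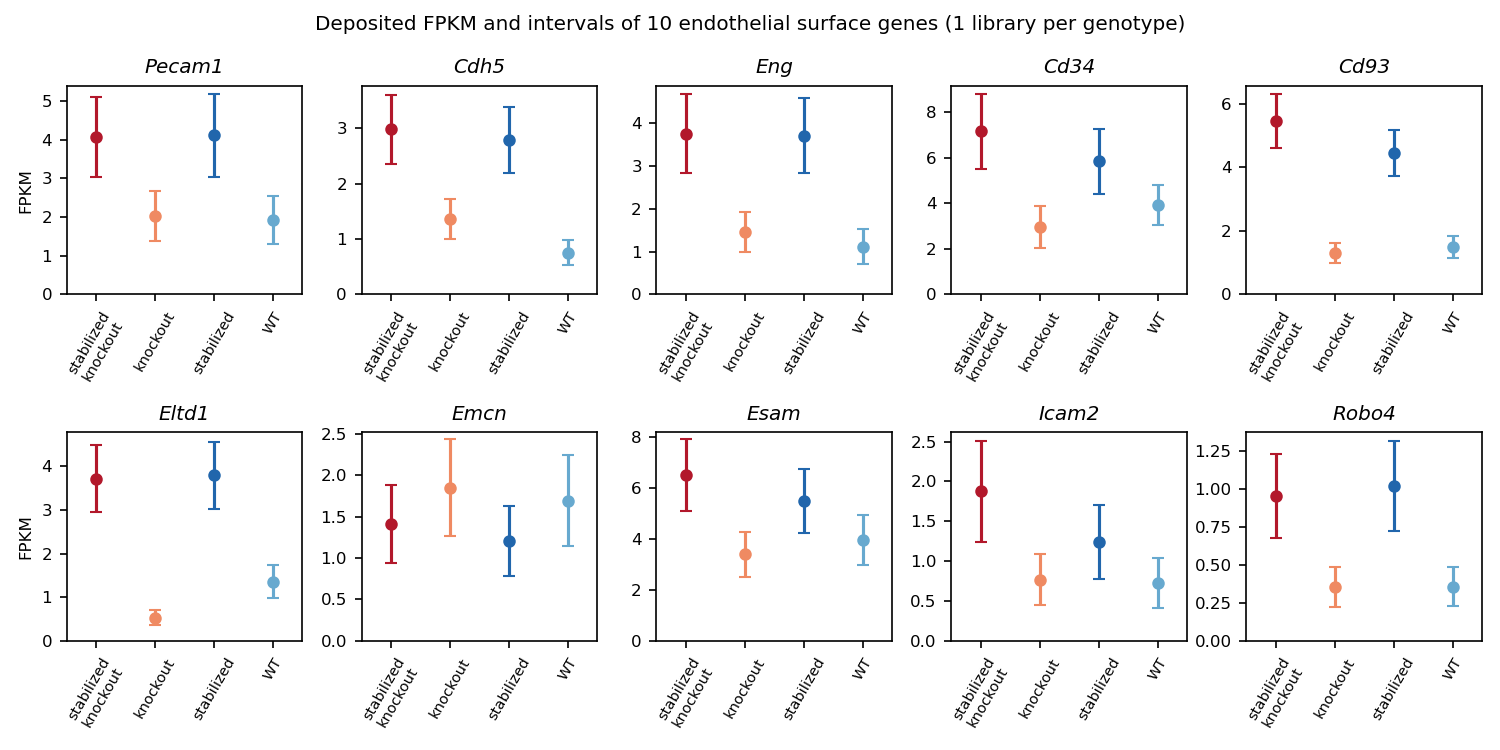
FPKM of each of the 10 genes in the 4 libraries, with points for the deposited value and bars for the deposited interval within a library. In every panel except that of Emcn the stabilized knockout and the stabilized library sit above the knockout and WT, as for Cd93 with 5.44 and 4.44 FPKM against 1.29 and 1.49 FPKM.

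The promoter windows of Eltd1, Eng, Cd34 and Emcn are shown because Eltd1 had the largest stabilization ratio of the 10 genes in the knockouts, Eng had intervals apart in both Ndp states, and Cd34 and Emcn, both sialomucin genes, went different ways. Each is the 250 bases before the RefSeq start on the plus strand (GRCm38.p6), at chr3:151437632-151437881 for Eltd1, chr2:32646345-32646594 for Eng, chr1:194938571-194938820 for Cd34 and chr3:137340828-137341077 for Emcn. They run 5′ to 3′, and capitals mark the letters GGAA or TTCC, the core bound by ETS factors, a family with known roles in endothelial gene expression.
Eltd1: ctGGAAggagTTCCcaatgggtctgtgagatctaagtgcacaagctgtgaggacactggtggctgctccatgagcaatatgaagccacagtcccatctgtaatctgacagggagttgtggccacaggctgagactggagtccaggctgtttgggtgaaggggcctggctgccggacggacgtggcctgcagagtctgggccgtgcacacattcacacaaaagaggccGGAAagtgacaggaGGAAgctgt
Eng: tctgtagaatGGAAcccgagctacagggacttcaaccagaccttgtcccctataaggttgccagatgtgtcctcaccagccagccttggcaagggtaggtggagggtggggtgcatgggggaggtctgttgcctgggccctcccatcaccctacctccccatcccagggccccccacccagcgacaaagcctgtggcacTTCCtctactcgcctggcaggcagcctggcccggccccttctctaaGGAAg
Cd34: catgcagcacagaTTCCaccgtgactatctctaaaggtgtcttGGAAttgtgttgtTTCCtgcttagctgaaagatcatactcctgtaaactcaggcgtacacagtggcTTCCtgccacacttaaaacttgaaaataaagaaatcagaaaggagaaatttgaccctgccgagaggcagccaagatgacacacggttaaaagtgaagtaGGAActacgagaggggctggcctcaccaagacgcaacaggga
Emcn: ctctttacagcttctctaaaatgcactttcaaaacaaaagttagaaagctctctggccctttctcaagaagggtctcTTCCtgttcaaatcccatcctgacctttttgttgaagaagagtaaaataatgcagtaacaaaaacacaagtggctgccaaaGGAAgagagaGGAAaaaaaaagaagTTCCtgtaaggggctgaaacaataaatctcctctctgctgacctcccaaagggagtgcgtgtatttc
The core occurred 4 times in the window of Eltd1, 3 times in that of Eng, 5 times in that of Cd34 and 4 times in that of Emcn, counting both strands. The median over 32851 promoter windows of the same length was 3, and 93.4% held at least 1. As many cores as in Cd34, or more, were held by 18% of windows, and as many as in Eltd1 and Emcn by 33.4%. RefSeq windows were matched for 5 of the 10 genes, Robo4 with 3 cores being the fifth. Of 6 longer motifs searched on both strands, CCGGAAGT (in 2.88% of all windows), AGATAA (9.99%), ACAATG (10.7%), CTTTGATC (0.801%) and CTTTGAAC (0.871%) matched none of the 5 windows. ACAGGAAG, which contains the core, matched that of Emcn alone among the 5 and 2.9% of all windows.

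The knockout pools and the pools with intact Ndp differed in sex-linked RNA. Xist was at 1.28 and 1.25 FPKM in the stabilized knockout and the knockout, against 130 and 135 FPKM in the stabilized library and WT. The Y-linked Ddx3y was at 20.1 and 18.7 FPKM in the stabilized knockout and the knockout, against 0.173 and 0.0896 FPKM in the stabilized library and WT, so loss of Ndp and sex cannot be told apart. Ndp itself was at 0.869 and 0.873 FPKM in the libraries labelled as knockouts, against 2.35 and 2.98 FPKM in the stabilized library and WT. Depth is unknown, since no source at hand states read totals. Interval widths were alike between libraries: over genes in the range of level of the 10, the upper bound lay a median of 26.96% to 27.18% above the value in each of the 4. For the 10 genes themselves it lay 23.7% above in the stabilized knockout and 31.8% in the knockout, and 24.1% in the stabilized library and 31.0% in WT, narrower where their FPKM were higher. The retina was recognisable in each library by the photoreceptor gene Rcvrn, at 384 to 623 FPKM.

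The stabilized knockout against the knockout asks what stabilized beta-catenin does without Norrin. Of the 10 genes, 9 were at least 1.5-fold higher in the stabilized knockout on FPKM plus 0.5, the scale of all log2 ratios here, and none was 1.5-fold lower (0.92% of all genes tested). All 9 had intervals apart. Among the 13150 genes with a mean level of 1 FPKM or more and status OK in all libraries, 1.76% were 1.5-fold higher and 1.26% were higher with intervals apart. Within the range of mean level that the 10 genes span, these shares were 3.3% and 2.68%. The median log2 ratio of the 10 genes was 0.91, against 0.03 over all 13150 genes.

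The stabilized library against WT asks the same with Ndp intact. Here 6 of the 10 genes were 1.5-fold higher, each with intervals apart, and none was 1.5-fold lower (1.71% of all genes tested). The background was 1.67% of all genes for 1.5-fold higher and 1.76% for intervals apart, or 2.86% and 2.36% in the range of level of the 10 genes. The median log2 ratio was 0.88, against -0.02 over all genes. All 6 were also among the 9, so 6 genes were 1.5-fold higher in both comparisons, where 0.73% of all genes were, and had intervals apart in both, where 0.684% did. These comparisons share no library, but each sets 1 library against 1 and has no replicate check.

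Among the junction and adhesion genes, Pecam1 (chromosome 11, 106654217 to 106750628, GENCODE M21 on the same mm10 assembly) had nearly the same difference in both settings. It was at 4.08 FPKM (interval 3.05 to 5.10) in the stabilized knockout, against 2.02 FPKM (1.37 to 2.66) in the knockout, and at 4.12 FPKM (3.04 to 5.20) in the stabilized library, against 1.93 FPKM (1.31 to 2.56) in WT. The log2 ratios were 0.86 in the knockouts and 0.92 with intact Ndp.

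Cdh5 (chromosome 8, 104101625 to 104144511), the gene of VE-cadherin, whose cytoplasmic tail binds beta-catenin, was at 2.98 FPKM (2.35 to 3.61) in the stabilized knockout, against 1.36 FPKM (0.999 to 1.72) in the knockout. With Ndp intact it was at 2.79 FPKM (2.18 to 3.39) in the stabilized library, against 0.754 FPKM (0.529 to 0.980) in WT. WT was thus the lowest library and the stabilized libraries were alike, which gave log2 ratios of 0.90 in the knockouts and 1.39 with intact Ndp. Annotation places an antisense gene over part of Cdh5, and the sources do not say whether reads were counted by strand.

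Esam (chromosome 9, 37528078 to 37538319) was at 6.49 FPKM (5.08 to 7.89) in the stabilized knockout, against 3.39 FPKM (2.51 to 4.28) in the knockout, a log2 ratio of 0.84. It was at 5.48 FPKM (4.23 to 6.74) in the stabilized library, against 3.95 FPKM (2.96 to 4.94) in WT, where the ratio of 0.43 came with overlapping intervals. Icam2 (chromosome 11, 106377656 to 106388075) was lower in level, and its knockout and WT values were close together. It was at 1.88 FPKM (1.25 to 2.51) in the stabilized knockout, against 0.768 FPKM (0.445 to 1.09) in the knockout, and at 1.24 FPKM (0.779 to 1.71) in the stabilized library, against 0.726 FPKM (0.418 to 1.03) in WT. The log2 ratios of Icam2 were 0.91 and, with overlapping intervals, 0.51.

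Among the receptors, Eltd1 (chromosome 3, 151437887 to 151545086) had the highest stabilization ratio of the 10 genes in the knockouts. It was at 3.72 FPKM (2.95 to 4.49) in the stabilized knockout, against 0.532 FPKM (0.355 to 0.710) in the knockout, a log2 ratio of 2.03, or 6.99-fold without the added 0.5. With Ndp intact it was at 3.79 FPKM (3.02 to 4.56) in the stabilized library, against 1.36 FPKM (0.984 to 1.73) in WT, a ratio of 1.21. The values with stabilization were close together, and the knockout lay apart below WT.

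Cd93 (chromosome 2, 148436640 to 148443563) was at 5.44 FPKM (4.60 to 6.29) in the stabilized knockout, against 1.29 FPKM (0.986 to 1.60) in the knockout, a log2 ratio of 1.73. It was at 4.44 FPKM (3.71 to 5.17) in the stabilized library, against 1.49 FPKM (1.15 to 1.83) in WT, a ratio of 1.31. The BMP co-receptor gene Eng (chromosome 2, 32646595 to 32682669) was at 3.76 FPKM (2.84 to 4.68) in the stabilized knockout, against 1.46 FPKM (0.986 to 1.93) in the knockout, and at 3.71 FPKM (2.83 to 4.58) in the stabilized library, against 1.11 FPKM (0.701 to 1.53) in WT. Both genes thus had clear gaps between libraries with and without stabilization, and the ratios of Eng were 1.12 in the knockouts and 1.38 with intact Ndp. Eng shares its deposited locus with Fpgs on the other strand, which was at 5.27 and 4.53 FPKM in the stabilized knockout and in the knockout and at 5.35 and 4.67 FPKM in the stabilized library and in WT, with overlapping intervals.

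Robo4 (chromosome 9, 37401897 to 37415115) was the lowest of the 10 and had a mean of 0.673 FPKM, below the minimum for the fit described further on. It was at 0.954 FPKM (0.675 to 1.23) in the stabilized knockout, against 0.356 FPKM (0.225 to 0.487) in the knockout, and at 1.02 FPKM (0.726 to 1.32) in the stabilized library, against 0.358 FPKM (0.228 to 0.487) in WT. By the deposited values it was 2.68 times as high in the knockouts and 2.86 times as high with intact Ndp. The added 0.5 reduces these to log2 ratios of 0.76 and 0.83.

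The sialomucin genes went different ways. Cd34 (chromosome 1, 194938819 to 194961279), the most abundant of the 10 in both stabilized libraries, was at 7.16 FPKM (5.51 to 8.81) in the stabilized knockout, against 2.95 FPKM (2.03 to 3.87) in the knockout, a log2 ratio of 1.15. It was at 5.83 FPKM (4.41 to 7.26) in the stabilized library, against 3.92 FPKM (3.06 to 4.78) in WT, a ratio of 0.52 with overlapping intervals. Cd34 overlaps the antisense gene Gm16897, which was at or below 0.660 FPKM in every library.

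Emcn (chromosome 3, 137341067 to 137432185) was at 1.41 FPKM (0.935 to 1.88) in the stabilized knockout, against 1.85 FPKM (1.27 to 2.43) in the knockout. It was at 1.21 FPKM (0.786 to 1.63) in the stabilized library, against 1.69 FPKM (1.14 to 2.24) in WT. The log2 ratios were -0.30 in the knockouts and -0.36 with intact Ndp, and the intervals of all 4 libraries overlapped. Emcn held 3.72% of the summed FPKM of the 10 genes in the stabilized knockout and 11.6% in the knockout, and 3.59% in the stabilized library and 9.77% in WT. Set against Pecam1 in the same library, its level was 0.346 and 0.916 times that of Pecam1 in the stabilized knockout and knockout, and 0.293 and 0.873 times in the stabilized library and WT. Composition moved the other way for Cd93, from which 14.4% of the sum came in the stabilized knockout and 8.09% in the knockout, and 13.2% in the stabilized library and 8.62% in WT. Pecam1 kept a share of 10.8% to 12.6% in all 4 libraries.

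**Figure D2:**
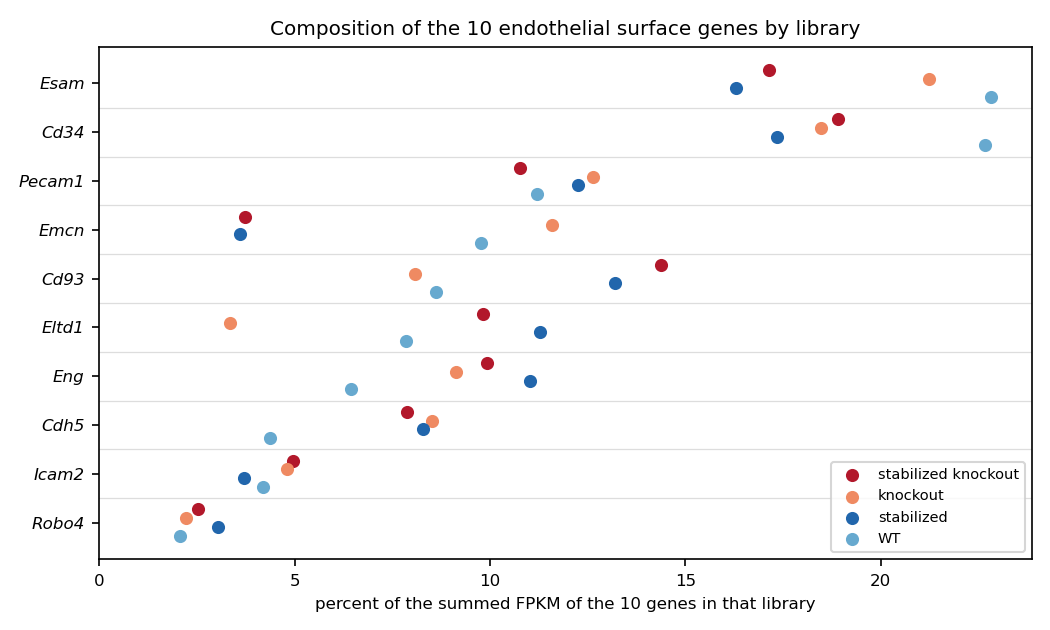
Share of each of the 10 genes in their summed FPKM, in percent, with a point for each library. The points of Emcn split into 3.72% and 3.59% in the stabilized knockout and the stabilized library, against 11.6% and 9.77% in the knockout and WT, and those of Cd93 split in the opposite direction.

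A single fit over all 4 libraries, with 1 term for stabilization and 1 for loss of Ndp, leaves 1 residual degree of freedom and allows a test if both effects are taken to add up. In that fit (limma on log2 of FPKM plus 0.5, Benjamini-Hochberg adjustment over 13150 genes) none of the 9 genes tested passed an adjusted p of 0.05 for stabilization. Their adjusted p-values ran from 0.116 for Cd93 to 0.312 for Emcn, where 0.144% of all genes passed. At an unadjusted p under 0.05, 8 of the 9, all except Emcn, were higher, as were 9.7% of all genes. The coefficient was 1.62 ± 0.23 for Eltd1, 1.52 ± 0.14 for Cd93, 1.25 ± 0.12 for Eng, 1.15 ± 0.16 for Cdh5 and 0.89 ± 0.09 for Pecam1 (SE, 2 libraries with and 2 without). It was 0.83 ± 0.17 for Cd34, 0.71 ± 0.17 for Icam2, 0.64 ± 0.13 for Esam and -0.33 ± 0.12 for Emcn.

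The call depended on the way the fit estimated the spread. With robust estimation in limma 5 of the 9 passed at adjusted p-values from 0.00141 to 0.0444 (Pecam1, Cdh5, Eng, Cd93 and Esam), where 1.23% of all genes passed in that direction. With 249 short RNA genes left out, a choice made after seeing the data, 8 of the 9 passed (limma, adjusted p of 0.000781 to 0.0428) and Emcn did not (0.168), where 1.88% of 12901 genes passed as higher. Emcn was lower at an unadjusted p of 0.0244 in that fit and of 0.0298 with robust estimation (limma). In these fits 21.8% and 20% of all genes had an unadjusted p under 0.05 in either direction. Only with a minimum mean of 0.5 FPKM or with none could Robo4 be tested, at a coefficient of 0.80 and adjusted p-values of 0.219 and 0.451.

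The size of the stabilization ratio varied between the Ndp states for some genes, but the additive fit uses up what would be needed to test this, so it was not tested. The ratio in the knockouts minus that with intact Ndp was 0.82 for Eltd1, 0.63 for Cd34, 0.42 for Cd93, 0.42 for Esam and 0.40 for Icam2, and it was -0.49 for Cdh5 and -0.26 for Eng. For Pecam1, Robo4 and Emcn it lay within 0.07 of 0. The median was 0.23 over the 10 genes and 0.06 over all 13150.

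The knockout against WT asks what loss of Norrin does on its own. Of the 10 genes 1 was 1.5-fold lower, where 1.22% of all genes were, and none was 1.5-fold higher, where 0.966% were. That gene was Eltd1, at 0.532 FPKM in the knockout, against 1.36 FPKM in WT with intervals apart (0.327% of all genes lower in this way), a log2 ratio of -0.85. Cdh5 pointed the other way, at 1.36 FPKM in the knockout, against 0.754 FPKM in WT with intervals apart (0.433% of all genes higher in this way), and its ratio of 0.57 fell just short of 1.5-fold. It passed 1.5-fold with a pseudocount of 0.1, after re-centring on the median and after rescaling to the same total. Of the 10 ratios 5 were above 0 and 5 below, with a median of 0.02. Intervals overlapped for the other 8 genes, among them Cd34 at -0.36 and Eng at 0.28.

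The stabilized knockout against the stabilized library asks the same once beta-catenin is stabilized. None of the 10 was 1.5-fold apart and all 10 pairs of intervals overlapped, against backgrounds of 0.981% and 0.692% of all genes 1.5-fold higher and lower and of 0.312% and 0.213% with intervals apart in each direction. The median log2 ratio was 0.12. Icam2 had the largest difference, at 1.88 FPKM in the stabilized knockout, against 1.24 FPKM in the stabilized library (0.45). The pair in which Eltd1 differed without stabilization was level here, at 3.72 FPKM in the stabilized knockout, against 3.79 FPKM in the stabilized library (-0.03), as was that of Cdh5, at 2.98 and 2.79 FPKM (0.08). In the additive fit no gene of the 9 passed for loss of Ndp (limma, adjusted p of 0.991 to 0.998), where 0.137% of all genes did, and 0 had an unadjusted p under 0.05, where 3.91% did. Without short RNA genes, Cdh5 was higher and Eltd1 lower with loss of Ndp at unadjusted p-values of 0.0482 and 0.0381 (limma), and neither passed after adjustment (0.893 and 0.847). In that fit 5.54% of 12901 genes had an unadjusted p under 0.05 in either direction.

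**Figure D3:**
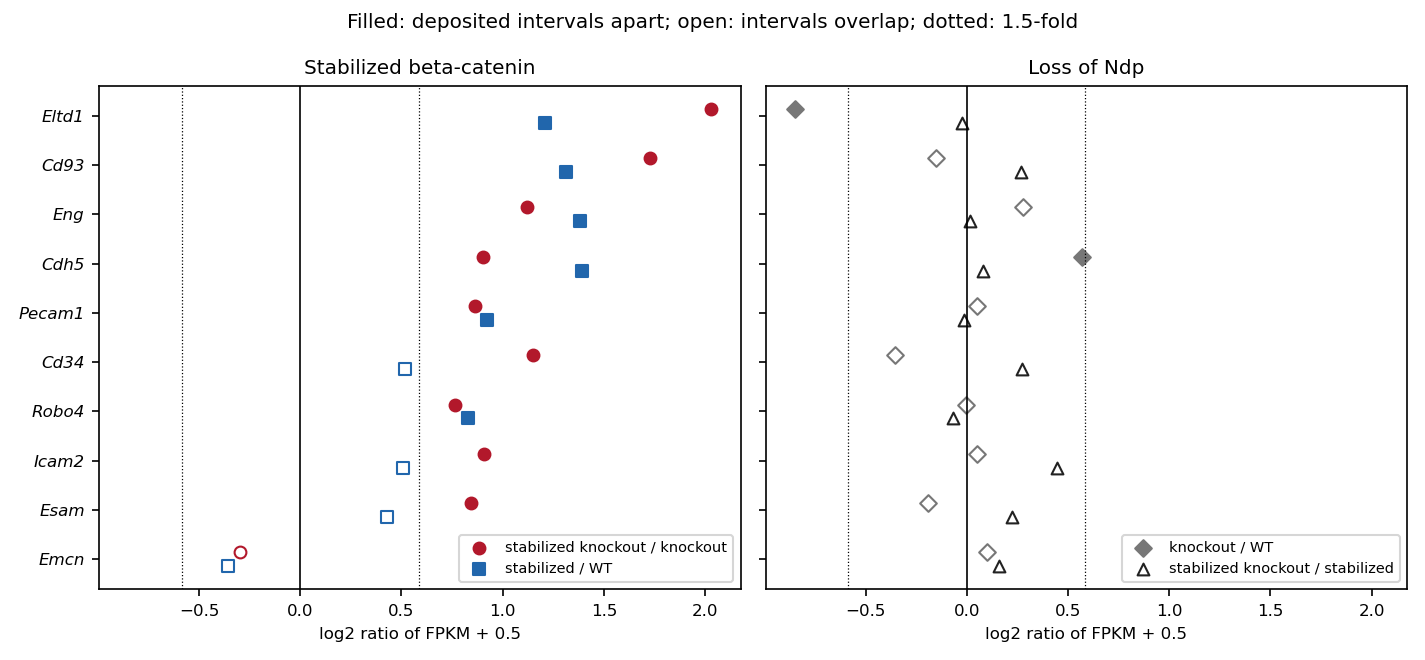
Log2 ratios of FPKM + 0.5 for the 10 genes, by stabilization on the left and by loss of Ndp on the right, with filled symbols where the deposited intervals lay apart. All symbols on the left except those of Emcn lie above 0, and on the right the only filled symbols are those of Eltd1 at -0.85 and Cdh5 at 0.57 in the knockout against WT.

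The stabilized knockout against WT asks where the combined genotype stands relative to the normal retina, and for most of these genes it stood above it. Of the 10 genes 9 were 1.5-fold higher with intervals apart, where 1.79% and 2.02% of all genes were, none was 1.5-fold lower (1.07% of all genes), and the median log2 ratio was 0.93. Cd93 (1.58), Cdh5 (1.47) and Eng (1.40) had the highest ratios and Emcn was at -0.20. This comparison shares its libraries with those above and is no separate evidence.

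Other genes of the same pathways were read from lists written for this purpose. Of the 35 other endothelial genes that the table held, 16 were 1.5-fold higher in the stabilized knockout than in the knockout, 12 in the stabilized library than in WT, and 11 in both, with none 1.5-fold lower. Of all genes tested, 1.76% were 1.5-fold higher in the first comparison, 1.67% in the second and 0.73% in both. The shares 1.5-fold lower were 0.92% and 1.71%. Many of the 35 were low, and 15 had a mean of at least 1 FPKM, the minimum behind these shares. None of the 15 passed the additive limma fit after adjustment, and 9 were higher at an unadjusted p under 0.05, as were 9.7% of all genes. With short RNA genes left out, 6 of the 15 passed as higher, where 1.88% of 12901 genes did. Cldn5, the claudin of endothelial tight junctions, had the highest coefficient at 2.65 (adjusted p 0.257), with the receptor gene Tie1 at 1.38, the transcription factor gene Sox18 at 1.17 and Ly6c1 at 0.89. Another 5 of the 15 had small or negative coefficients, with Kdr, the main VEGF receptor gene, at 0.24, Arhgef15 at 0.05, S1pr1 at -0.08, Jam2 at -0.17 and Vcam1 at -0.19, each with overlapping intervals in both pairs. The whole list summed to 184 FPKM in the stabilized knockout, against 142 FPKM in the knockout, and to 180 FPKM in the stabilized library, against 150.2 FPKM in WT. Jam2 (47.8 to 55.3 FPKM over the libraries) and Kdr (39.0 to 47.7 FPKM) were the largest parts of this sum. The part of other retinal cells in it was not tested. In the knockout against WT 3 of the 35 were 1.5-fold lower (Cldn5, Ly6a and Nostrin) and none higher, where 1.22% and 0.966% of all genes were. Cldn5 was at 0.675 FPKM in the knockout, against 6.91 FPKM in WT. With stabilization Cldn5 was at 16.7 FPKM in the stabilized knockout and 19.4 FPKM in the stabilized library, so that its 4 libraries had the same order as those of Eltd1. The median of the mean of both stabilization ratios was 0.44 for this list, 0.86 for the 10 surface genes and 0.01 over all genes tested.

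Genes whose products bind or resemble the 10 were read as well. Mmrn2, whose protein binds Cd93, was at 1.01 FPKM in the stabilized knockout, against 0.386 FPKM in the knockout, and at 0.752 FPKM in the stabilized library, against 0.253 FPKM in WT, with intervals apart in both pairs. Acvrl1, the type I receptor that works with Eng, was at 1.42 and 0.977 FPKM in the stabilized knockout and in the knockout and at 1.68 and 0.912 FPKM in the stabilized library and in WT, with intervals apart in the second pair. The catenin genes whose proteins join VE-cadherin to the cytoskeleton are expressed by many retinal cells, and Ctnnb1 lay between 138 and 161 FPKM with overlapping intervals. Jup, which encodes gamma-catenin, had a coefficient of 0.47 and Ctnna1 one of 0.28, while Bmpr2 had -0.26. Of the 19 partners and relatives that the table held, 3 were 1.5-fold higher in the knockouts and 3 with intact Ndp, where 1.76% and 1.67% of all genes were. By intervals apart 4 were higher in the knockouts and 5 with intact Ndp, where 1.26% and 1.76% of all genes were. None of the 12 tested passed the additive limma fit, with 6 higher (9.7% of all genes) and 1 lower at an unadjusted p under 0.05. Of all genes, 16.1% had such a p in either direction. With short RNA genes left out, 1 of the 12 passed as higher, where 1.88% of 12901 genes did.

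Many, though not all, markers of other cells that lie in or around vessels differed along with the 10 genes. The 12 mural cell genes summed to 36.7 FPKM in the stabilized knockout, against 16.2 FPKM in the knockout, and to 39.1 FPKM in the stabilized library, against 24.1 FPKM in WT. Of these 8 were 1.5-fold higher in each comparison, where 1.76% of all genes were in the knockouts and 1.67% with intact Ndp. None of the 6 tested passed the additive limma fit (adjusted p of 0.178 to 0.735), and the coefficients were led by the smooth muscle actin gene Acta2 with a coefficient of 1.41, Abcc9 at 0.89, the pericyte gene Rgs5 at 0.81 and Notch3 at 0.81. With short RNA genes left out, 5 of these 6 passed as higher, where 1.88% of 12901 genes did. Tagln was level, at 2.00 to 2.27 FPKM over all libraries (coefficient 0.08). The 8 erythroid genes summed to 176 and 76.0 FPKM in the stabilized knockout and in the knockout and to 164 and 70.1 FPKM in the stabilized library and in WT. Of the 8, 3 were 1.5-fold higher in the knockouts and 5 with intact Ndp, where 1.76% and 1.67% of all genes were. Epb4.2 went the other way, at 0.316 FPKM in the stabilized knockout, against 0.458 FPKM in the knockout. It was at 0.175 FPKM in the stabilized library, against 0.305 FPKM in WT, and intervals overlapped in both pairs. Hba-a1, an alpha-globin gene, rose with stabilization (coefficient 1.22, limma adjusted p 0.0431), though with no minimum level no gene of the table passed. The coefficients were 3.42 for Hba-a2, a near-identical copy that makes both values uncertain, 1.25 for Hbb-b2 and 0.92 for Hbb-b1, none of which passed in that fit. Of the 4 erythroid genes tested, 3 passed as higher with short RNA genes left out (1.88% of 12901 genes). The part of blood and of mural cells in the values of the 10 genes was not tested.

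Leukocytes and platelets also carry Pecam1, Icam2 and Cd93 protein. Their 11 markers summed to 20.5 and 18.4 FPKM in the stabilized knockout and in the knockout and to 19.0 and 19.1 FPKM in the stabilized library and in WT. The pan-leukocyte gene Ptprc was at 0.199 to 0.208 FPKM in all 4 libraries, the T cell gene Cd3e was listed at 0 in all, and Pf4, Ppbp, Gp9 and S100a8 were listed at 0 in at least 1. Of the 11, 2 were 1.5-fold higher in the knockouts, 1 with intact Ndp and 1 in both, where 1.76%, 1.67% and 0.73% of all genes were. The one in both was the neutrophil gene S100a9, at 0.470 FPKM in the stabilized knockout, against 0.0831 FPKM in the knockout, and at 1.05 FPKM in the stabilized library, against 0.0450 FPKM in WT, with intervals apart in the second pair. The other was S100a8, at 0.457 FPKM in the stabilized knockout and listed at 0 in the knockout, with overlapping intervals. Most of the sum came from the 2 markers with a mean of at least 1 FPKM, of which Lyz2 had a coefficient of -0.37 and Gp1bb one of 0.14. Lyz2 was the 1 marker of the 11 that was 1.5-fold lower with intact Ndp (1.71% of all genes). It was at 3.77 FPKM in the stabilized library, against 6.89 FPKM in WT, with intervals apart. In the knockouts none was 1.5-fold lower (0.92% of all genes), and Lyz2 was at 5.40 and 5.17 FPKM with and without stabilization. The 11 microglia markers summed to 42.4 and 35.2 FPKM in the stabilized knockout and in the knockout and to 38.4 and 40.5 FPKM in the stabilized library and in WT, and the named ones had coefficients of 0.48 (Csf1r), 0.22 (Cd68), -0.23 (Aif1) and -0.28 (P2ry12), none of which passed. None of the 11 was 1.5-fold higher in either comparison (1.76% and 1.67% of all genes). With intact Ndp 1 was 1.5-fold lower (1.71% of all genes). That was P2ry12, at 1.85 FPKM in the stabilized library, against 3.13 FPKM in WT, with overlapping intervals. Lymphatic markers summed to 73.1 and 75.0 FPKM in the stabilized knockout and in the knockout and to 71.8 and 77.0 FPKM in the stabilized library and in WT, mostly from Prox1 and Pdpn, which the neural retina also expresses, with coefficients of -0.06 and -0.11, and Lyve1 was at -0.11. Of 6 astrocyte genes 1 was 1.5-fold higher in the knockouts and 4 with intact Ndp, where 1.76% and 1.67% of all genes were. Pdgfra had the highest coefficient at 0.84 (limma adjusted p 0.116), with Gfap at 0.59, Gja1 at 0.50 and S100b at 0.32, while Aldh1l1 was at -0.04. With short RNA genes left out, 3 of the 5 astrocyte genes tested passed as higher, where 1.88% of 12901 genes did. In that fit 1 of the 8 microglia markers tested passed as higher, and none of the leukocyte, platelet or lymphatic markers did. Among genes of retinal neurons and glia, Rcvrn had a coefficient of -0.44, Thy1 0.27 and Arr3 0.23, and none of these passed. Rcvrn was lower with intervals apart in both pairs, at 449 FPKM in the stabilized knockout, against 623 FPKM in the knockout, and at 384 FPKM in the stabilized library, against 511 FPKM in WT.

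**Figure D4:**
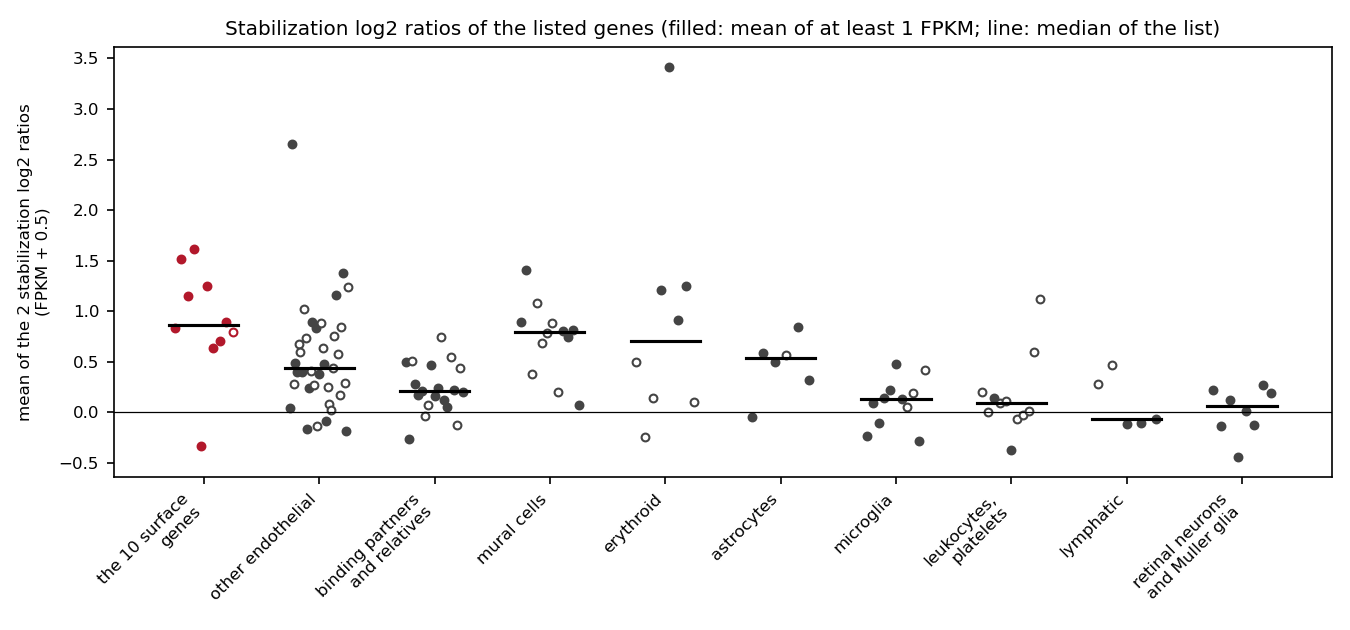
Mean of both stabilization log2 ratios for every gene of each list, with a line at the median of the list. The medians were 0.86 for the 10 surface genes, 0.44 for other endothelial genes, 0.80 for mural cells, 0.71 for erythroid cells, 0.54 for astrocytes, 0.21 for partners and relatives, 0.13 for microglia, 0.09 for leukocytes and platelets, -0.06 for lymphatic vessels and 0.07 for neurons and Muller glia of the retina.

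The genes whose profile over the 4 libraries was closest to the median profile of the 10, by Euclidean distance of centred log2 levels, were Mcam, Pdgfra, Ubtd2, Pdgfb, Gja4, Abcc9, Col5a3 and Aldh3a2. Mcam is on the list of other endothelial genes, Pdgfra on that of astrocytes and Abcc9 on that of mural cells. The others are on none of the lists. Pdgfra and Ubtd2 came next after Mcam, at distances of 0.127 and 0.132. Pdgfra was at 10.2 FPKM in the stabilized knockout, against 5.10 FPKM in the knockout. It was at 8.91 FPKM in the stabilized library, against 5.06 FPKM in WT. Mcam, an adhesion gene of endothelial and mural cells, was at 9.02 and 4.65 FPKM in the stabilized knockout and in the knockout and at 8.40 and 4.65 FPKM in the stabilized library and in WT, at a distance of 0.125. Pdgfb, whose regulatory sequence drives the recombinase, was at 2.92 and 1.11 FPKM in the stabilized knockout and in the knockout and at 2.57 and 1.14 FPKM in the stabilized library and in WT. Gja4, a connexin gene of arterial endothelium, was at 1.87 and 0.640 FPKM in the stabilized knockout and in the knockout and at 1.80 and 0.668 FPKM in the stabilized library and in WT. Among the 10 genes themselves Pecam1 was nearest to their median, with 4 of 13141 other genes nearer, and Robo4 next with 11. Emcn was farthest, with 12519 nearer, and the distances rest on 4 values each. The median profile was computed from these same 10 genes, so their nearness to it is partly built in.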

How the data were processed

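For each gene and library the authors deposited an FPKM value, its interval and a status, and TopHat, Cuffdiff and mm10 are named in the submitters' processing notes. No source used here gives versions, annotation, library scaling, strand or read totals. Columns were assigned by the number in their name, which is that in the description of a single sample. FPKM are relative within a library.

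The 10 genes and the lists were chosen with earlier results of these data known. Log2 ratios use FPKM plus 0.5, and counts of the 10 genes include all of them whatever their level. Background shares and the fit use the 13150 genes with a mean of at least 1 FPKM and status OK in each library. Calls are 1.5-fold, or deposited intervals apart. The additive fit (limma 3.58.1 in R 4.3.3, eBayes with trend) was run on simulated data. Those data had additive effects and a spread drawn from the fit's own estimate, so they cannot check either assumption. The fit treats any interaction as error. Its p-values test the coefficients of stabilization and of loss of Ndp. The spread they are set against comes from departure from additivity among 4 pooled libraries, combined with that of all genes. That spread is not variation between animals. Of each list, up to 4 genes with a mean of at least 1 FPKM and the largest absolute coefficient were named, with any that were called; 1 gene under this rule is not reported here. Mmrn2, Ctnnb1, Ly6a, Nostrin, Sox17, Tal1, Kdr, Arhgef15, S1pr1, Jam2, Vcam1, S100a9, Ptprc, Cd3e, Pf4, Ppbp, Gp9, S100a8, Tagln, Epb4.2 and Aldh1l1 were named after their values were seen. The GGAA core was counted after the longer motifs had been searched. Eltd1 was matched to Adgrl4 by its RefSeq synonym, and protein sequences were not used here. Python 3.11.15, numpy 2.4.6, pandas 2.3.3 and matplotlib 3.10.9 were used.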

Additional observations from a re-analysis of the deposited data

How the results depend on the processing

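No direction of a called ratio of the 10 genes and no sign of a stabilization coefficient reversed under any setting tried. At 2-fold in place of 1.5-fold, 4 of the 10 genes were higher in the stabilized knockout than in the knockout, 4 were higher in the stabilized knockout than in WT, and 0 were lower in the knockout than in WT. The share of all genes at 2-fold was not computed, so these counts have no background. With a pseudocount of 0.1 the median log2 ratio was 1.20 for the stabilized knockout against the knockout, 1.17 for the stabilized library against WT and 1.23 for the stabilized knockout against WT, since a smaller pseudocount shrinks low values less. Cdh5 became the 1 gene higher in the knockout than in WT with a pseudocount of 0.1, with median-centring, with rescaling to TPM and by intervals apart. In the additive fit, 5 of the 9 genes were called for stabilization with robust estimation and 8 without short RNA genes, a setting chosen after seeing the data. Over all genes the calls for stabilization numbered 0 with no minimum, 270 with robust estimation and 387 without short RNA genes, against 19, and those for loss of Ndp 0 with no minimum and 28 with robust estimation, against 18. A minimum of 5 FPKM left none of the 10 genes to test. The median log2 ratio of all genes, which median-centring removes, lay between -0.022 and 0.037. Library totals, which rescaling to TPM evens out, shifted ratios by -0.075 to 0.063. That rescaling also changes the weight of the added 0.5, and the Eltd1 ratio in the knockouts became 2.38. In the stabilized library against WT, 6 genes were 1.5-fold higher, and 7 with a pseudocount of 0.1, 5 with 1 and 8 after rescaling to TPM. Shares of all genes by fold were computed only with a pseudocount of 0.5 and without rescaling, so the counts at other settings have no background. Leaving out a library reduces the additive fit to a single pair, whose values stand in the report. No paired analysis was possible because each genotype has 1 library and the labels give no replicate numbers.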
